A study of Homo sapiens with 4 samples.

Results

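The enzymes described here hydroxylate collagen chains in the cell or crosslink collagen and elastin outside it. They are the lysyl oxidases LOX, LOXL1, LOXL2, LOXL3 and LOXL4, the catalytic subunits of prolyl 4-hydroxylase P4HA1, P4HA2 and P4HA3, and the lysyl hydroxylases PLOD1 and PLOD2. The genes were chosen with earlier results of these data known. Their probes were taken by name alone: every probe that is not a control and whose gene name in the array files is 1 of these 10 genes. This gave 13 of the 34127 probes on the arrays, which stand under 25992 names. LOXL3, P4HA2 and PLOD1 have 2 probes each and the other genes have 1.

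Gene expression was measured in HPTCs (human proximal tubular cells) on 4 Agilent arrays read in 1 colour, 2 for each of the lines HK-2 and RPTEC/TERT1, described by the methods as biological duplicates. They are written R1 and R2 after their replicate numbers (HK-2 R1 is replicate 1 of HK-2). HK-2 is a human proximal tubular line immortalised with papillomavirus oncogenes, and RPTEC/TERT1 was made from human proximal tubule cells with the telomerase subunit TERT, so each stands for 1 established line. All 4 cultures were starved for 24 h and then received both IL-1β (10 ng/mL), an inflammatory cytokine, and Empa (500 nM), the SGLT2 inhibitor empagliflozin, for 24 h. Control arrays and arrays of IL-1β alone were not used here, so the values describe 1 treated state and no effect of IL-1β or Empa can be read from them.

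Collagen chains are modified while they are still being made. Prolyl 4-hydroxylases turn proline into hydroxyproline, which keeps the triple helix stable at body temperature, and they work as complexes of a catalytic alpha subunit with the protein disulfide isomerase P4HB. Lysyl hydroxylases add hydroxyl groups to lysines, and those in the chain ends decide which kind of crosslink can form later. After secretion, lysyl oxidases oxidise lysine and hydroxylysine to aldehydes that react into covalent crosslinks. In the kidney these enzymes are studied mainly for scarring of the tissue around the tubules.

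The level of a probe is given throughout as log2 of its processed signal over the 75th percentile of the array, so 0 is the 75th percentile and 1 unit is a doubling. Signals too dim to measure were set to a common floor of -5.37. A probe is called well above background where the scanner software marked most of its spots so. That percentile was a processed signal of 393 on HK-2 R1, 748 on HK-2 R2, 488 on RPTEC/TERT1 R1 and 429 on RPTEC/TERT1 R2, and 59.2 to 64.9% of spots were well above background. The number of arrays limits the precision, and p-values measure the spread between these arrays only.

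The arrays did not group by their labels, and they are named here by their labels only. Across the 21217 probes tested, HK-2 R1 correlated with RPTEC/TERT1 R2 at a Pearson r of 0.983 and HK-2 R2 with RPTEC/TERT1 R1 at 0.975, against 0.852 for the 2 arrays labelled HK-2 and 0.837 for the 2 labelled RPTEC/TERT1. These correlations are across probes, which are not independent replicates. The 8 member probes with a value on all arrays showed the same: their median absolute difference was 0.09 between HK-2 R1 and RPTEC/TERT1 R2 and 0.33 between HK-2 R2 and RPTEC/TERT1 R1, but 0.69 within either label. Whether labels were exchanged was not tested. Scan dates followed the replicate numbers, 1 date for each number across both lines, so values within each number are also given.

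Markers of the cells also divided the arrays across the labels, in both directions. Of the 17 proximal tubule probes tested, 10 were higher on HK-2 R1 and RPTEC/TERT1 R2, and 4 (both of CDH2, 1 of GGT1 and that of LRP2) were higher on HK-2 R2 and RPTEC/TERT1 R1. The rest, 1 probe each of GGT1, KRT8 and AQP1, had other orders. Over all probes tested with 4 values, these 2 orders made up 38.1% and 33.5%. The marker counts were not tested against these shares. KRT18, a keratin of simple epithelia, was well above background on all 4 arrays with both of its probes. CDH1, the epithelial cadherin, was at -0.72 on HK-2 R1 and -1.12 on RPTEC/TERT1 R2 and not well above background on the other arrays. LRP2, the endocytic receptor megalin of the proximal tubule, was measured on all 4 arrays at -3.34 to -1.72, whereas CUBN, SLC22A6 and HNF4A were not well above background on any array. Of the 24 probes of the 15 proximal tubule markers, 17, 14, 12 and 17 were well above background on HK-2 R1, HK-2 R2, RPTEC/TERT1 R1 and RPTEC/TERT1 R2, and the summed signals were 64.6, 33.4, 35.7 and 61.8 times the 75th percentile.

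Fibroblast markers were mixed. DCN, a small proteoglycan, was at 1.77 on HK-2 R2 and 1.34 on RPTEC/TERT1 R1 at A_23_P64873 and not well above background on the other arrays. At A_33_P3382856, its other probe, DCN was far dimmer, at -3.00 on HK-2 R2 and -3.09 on RPTEC/TERT1 R1 and at the floor on the other arrays. LUM likewise was at 0.23 on HK-2 R2 and -0.30 on RPTEC/TERT1 R1 and at the floor on the other arrays. ACTA2, smooth muscle actin, was measured on HK-2 R1 and RPTEC/TERT1 R2 instead, at -1.56 and -1.39. The 9 probes of the 8 fibroblast markers summed to 0.540, 4.84, 3.61 and 0.580 times the 75th percentile in the same order of arrays. PDGFRA, PDGFRB, THY1, POSTN and COL3A1 of the same list were not well above background on any array. Endothelial markers summed to 0.293 to 0.499, with KDR and VWF not well above background on any array, CDH5 measured on all 4 at -3.02 to -2.15, and PECAM1 and TIE1 measured on 1 each. The leukocyte markers summed to 1.07 to 2.24. The part of these marker differences in the values of the enzymes was not tested.

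The probe sequences show what each measurement reads. The probes of LOX (GRCh37 chr5:121405786-121405845, minus strand), LOXL1 (chr15:74241855-74241914, plus strand) and 1 of the 2 LOXL3 probes (chr2:74761029-74761088, minus strand) are shown because they overlap in part when laid side by side. Capitals mark runs of 6 or more bases shared with another of these probes in the best ungapped overlap. LOX and LOXL1 shared 18 of 23 overlapping bases (78.3%), and LOX and LOXL3 shared 25 of 46 (54.3%), with a longest run of 11 bases.
LOX A_23_P122216: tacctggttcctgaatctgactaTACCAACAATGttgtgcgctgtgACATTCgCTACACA
LOXL1 A_33_P3354464: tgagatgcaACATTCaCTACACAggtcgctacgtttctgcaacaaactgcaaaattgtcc
LOXL3 A_23_P39799: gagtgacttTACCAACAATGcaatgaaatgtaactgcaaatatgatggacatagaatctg
All member probes are 60 bases long, so these runs cover a small part of each probe. Signal of a probe that comes from a related gene was not tested.

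The 2 P4HA2 probes are shown because they lie far apart along the gene and did not give the same differences between arrays. A_33_P3394933 (chr5:131549610-131549669, minus strand) lies 21302 bases upstream of A_23_P30363 (chr5:131528308-131528367, minus strand). Of the latter, bases 25 to 54 are printed, with AATAAA, a hexamer typical of the end of transcripts, in capitals. The array annotation assigns the 2 probes to different transcripts, and that of A_33_P3394933 was not found in RefSeq under the same symbol. Exon and UTR annotation of this build was not used here.
P4HA2 A_33_P3394933: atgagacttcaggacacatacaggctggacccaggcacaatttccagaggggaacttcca
P4HA2 A_23_P30363: gctttaccaaaaAATAAAatgtccctacca

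The prolyl 4-hydroxylase subunits come first in the order of collagen synthesis. P4HA1, the main catalytic subunit in most cell types, had a level of 2.00 on HK-2 R1, 2.22 on HK-2 R2, 2.41 on RPTEC/TERT1 R1 and 2.28 on RPTEC/TERT1 R2, at chr10:74767083-74767142. It was measured clearly on every array, with processed signals of 1568 to 3488. Both RPTEC/TERT1 arrays lay above both HK-2 arrays, and P4HA1 was the single member probe in that order. The mean was 2.11 ± 0.16 (SD, n = 2) for HK-2 and 2.35 ± 0.09 (SD, n = 2) for RPTEC/TERT1, a difference of -0.24 (SE 0.45, 95% interval -1.45 to 0.98). It was -0.42 in replicate 1 and -0.06 in replicate 2. With quantile normalization or the deposited log2 values the labelled lines overlapped, so the order depends on the scaling.

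P4HA2 encodes another catalytic subunit. At A_23_P30363 the level was 4.97 on HK-2 R2, 5.55 on RPTEC/TERT1 R1 and 3.71 on RPTEC/TERT1 R2, and the spot on HK-2 R1 was marked as an outlier and left out. RPTEC/TERT1 R1 was thus 3.59-fold above the other array of its own label. With the outlier spot kept, HK-2 R1 was at 3.85, next to RPTEC/TERT1 R2. The difference between the lines, fitted on 3 arrays, was 0.34 (SE 1.07, 95% interval -2.85 to 3.53), and it was -0.22 on 4 arrays with the outlier spot kept.

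At A_33_P3394933 the P4HA2 level was -1.32 on HK-2 R1, 0.36 on HK-2 R2, -0.06 on RPTEC/TERT1 R1 and -0.58 on RPTEC/TERT1 R2. The largest gap was again within a label, 3.22-fold between the 2 HK-2 arrays. HK-2 minus RPTEC/TERT1 was -1.27 in replicate 1 and 0.95 in replicate 2, and -0.16 in the fit (SE 0.74, 95% interval -2.16 to 1.84). Both P4HA2 probes were higher on HK-2 R2 and RPTEC/TERT1 R1 than on RPTEC/TERT1 R2. They disagreed between the first of these arrays and the second, where HK-2 R2 minus RPTEC/TERT1 R1 was 0.42 at A_33_P3394933 and -0.58 at A_23_P30363.

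P4HA3, the third catalytic subunit, was not well above background on any array. Its processed signals ran from -2.50 to 3.48, within the range of the array's own negative controls, whose 95th percentiles were 2.31 to 9.12. Its mapped positions span 1470 bases (chr11:73979228-73980697), more than the 60 bases of the probe. No difference between arrays was detectable for it.

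**Figure D1:**
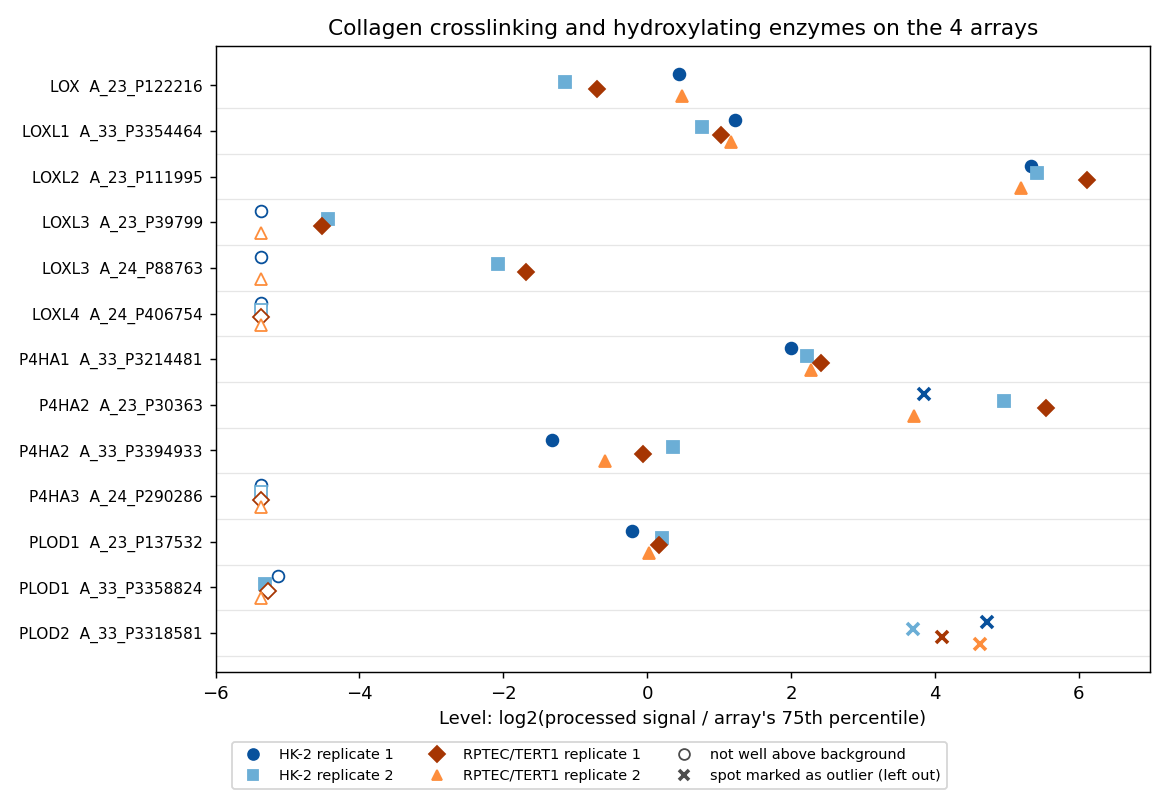
Level of each of the 13 member probes on the 4 arrays, as log2 of processed signal over the array's 75th percentile (horizontal axis), with colour and symbol for the array. Open symbols are not well above background and crosses are outlier spots left out of the fit. LOX is high on HK-2 R1 and RPTEC/TERT1 R2, and LOXL3 is measured on the other arrays only.

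The lysyl hydroxylases act on the same chains. PLOD1, which hydroxylates lysines of the triple helix, had at A_23_P137532 (chr1:12034947-12035006, plus strand) a level of -0.21 on HK-2 R1, 0.20 on HK-2 R2, 0.16 on RPTEC/TERT1 R1 and 0.02 on RPTEC/TERT1 R2. These levels lay close together, 1.33-fold from lowest to highest, and 90.3% of the probes tested with 4 values had a larger range. The difference between the lines was -0.10 (SE 0.47, 95% interval -1.35 to 1.16), with -0.37 in replicate 1 and 0.18 in replicate 2. The second PLOD1 probe, A_33_P3358824 (chr1:12012732-12012791), was well above background on HK-2 R2 only, with processed signals of 4.88 to 18.9, and was not tested.

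PLOD2, which hydroxylates lysines in the chain ends and is linked to the crosslinks of fibrotic tissue, gave bright spots on all 4 arrays, at chr3:145787452-145787511. Each of its 4 spots was marked as non-uniform and therefore left out, so PLOD2 has no tested value. With these spots kept, the level was 4.72 on HK-2 R1, 3.70 on HK-2 R2, 4.10 on RPTEC/TERT1 R1 and 4.62 on RPTEC/TERT1 R2. HK-2 R1 was then 2.04-fold above HK-2 R2, and the difference between the lines was -0.15 (SE 0.59). Whether the uneven spots changed these signals was not tested.

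Among the crosslinking enzymes, LOX, the founding lysyl oxidase, was spotted 10 times on each array. Its level was 0.45 on HK-2 R1, -1.14 on HK-2 R2, -0.70 on RPTEC/TERT1 R1 and 0.48 on RPTEC/TERT1 R2. The SD over the 10 spots was 0.110, 0.0808, 0.149 and 0.0801 on these arrays, which measures the spread on the array and not between cultures. LOX was therefore 3.01-fold higher on HK-2 R1 than on HK-2 R2 and 2.27-fold higher on RPTEC/TERT1 R2 than on RPTEC/TERT1 R1, in both cases by far more than the spots spread. In bulk RNA, fewer LOX-expressing cells and less LOX RNA per cell cannot be told apart.

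Between the labelled lines LOX did not differ beyond the spread of the arrays. HK-2 had a mean level of -0.35 ± 1.12 (SD, n = 2) and RPTEC/TERT1 of -0.11 ± 0.84 (SD, n = 2), a difference of -0.23 (SE 0.80, 95% interval -2.39 to 1.92). Within replicate 1 the difference was 1.15 and within replicate 2 it was -1.62, so its direction turned with the replicate number. The higher level on HK-2 R1 and RPTEC/TERT1 R2 was present in all 6 ways of correcting and scaling the signals.

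LOXL1, which is needed for elastic fibres, had a level of 1.22 on HK-2 R1, 0.76 on HK-2 R2, 1.02 on RPTEC/TERT1 R1 and 1.17 on RPTEC/TERT1 R2. It had the order of LOX but a narrower range, 1.38-fold from lowest to highest. The difference between the lines was -0.11 (SE 0.47, 95% interval -1.38 to 1.16). With normexp background correction the LOXL1 order changed, and both RPTEC/TERT1 arrays lay above both HK-2 arrays.

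LOXL2, which also crosslinks the type IV collagen of basement membranes, was bright on every array, with mean processed signals of 15836 to 33847 and no saturated spot. Its level was 5.34 on HK-2 R1, 5.42 on HK-2 R2, 6.11 on RPTEC/TERT1 R1 and 5.21 on RPTEC/TERT1 R2, and 9 of its 40 spots were marked as outliers and left out. One array, RPTEC/TERT1 R1, stood above the others, 1.87-fold over the array of its own label, while the 2 HK-2 arrays differed by 0.08. The spots of 1 array had an SD of 0.0482 to 0.106. The difference between the lines was -0.28 (SE 0.54, 95% interval -1.73 to 1.17), with -0.77 in replicate 1 and 0.21 in replicate 2.

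**Figure D2:**
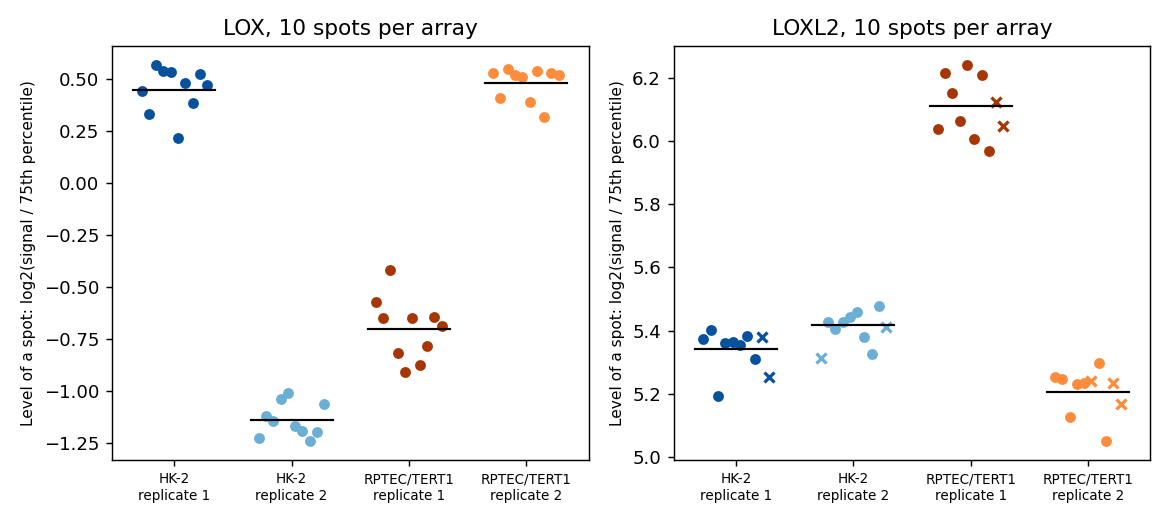
Level of each of the 10 LOX spots (left) and 10 LOXL2 spots (right) on every array, on the log2 scale over the array's 75th percentile, with black lines at the level used. Crosses are outlier spots left out, and the vertical axes differ between the panels. LOX spots of HK-2 R1 and RPTEC/TERT1 R2 lie wholly above those of the other arrays.

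LOXL3, a lysyl oxidase known for its part in the development of palate and spine, was measured on HK-2 R2 and RPTEC/TERT1 R1 and not well above background on the other arrays, with both of its probes. At A_24_P88763 (chr2:74760363-74760422, minus strand) the processed signal was 8.54 on HK-2 R1, 178 on HK-2 R2, 153 on RPTEC/TERT1 R1 and 8.79 on RPTEC/TERT1 R2. The LOXL3 level was -2.07 on HK-2 R2 and -1.68 on RPTEC/TERT1 R1. Against the floor, HK-2 R2 was at least 9.88-fold higher than HK-2 R1, and RPTEC/TERT1 R1 was at least 12.9-fold higher than RPTEC/TERT1 R2. The software's own error of these measured signals was 10.4% and 10.2%.

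At A_23_P39799, the LOXL3 probe printed above, the processed signal was -1.20, 34.4, 21.4 and 0.598 on HK-2 R1, HK-2 R2, RPTEC/TERT1 R1 and RPTEC/TERT1 R2. The level was -4.44 on HK-2 R2 and -4.51 on RPTEC/TERT1 R1, close to the floor. Both probes thus split the arrays alike, across the labels. Each labelled line holds 1 array at the floor, and the fitted differences rest on that set value. The LOXL3 difference between the lines was -0.19 (SE 1.73, 95% interval -4.85 to 4.46) at A_24_P88763 and 0.04 (SE 0.62, 95% interval -1.62 to 1.69) at A_23_P39799. With normexp correction or the deposited log2 values the LOXL3 order changed, and both R1 arrays lay above both R2 arrays. With normexp, LOXL3 at A_24_P88763 stood at -0.31 on HK-2 R1 and -2.85 on RPTEC/TERT1 R2, and the difference between the lines was 1.10. LOXL4 and P4HA3, not well above background on any array, were both at -0.32 on HK-2 R1 with normexp and at -3.72 to -3.06 elsewhere. With the deposited log2 values HK-2 R1 had -1.03 for LOXL3, -1.09 for LOXL4 and -1.07 for P4HA3. In both settings the LOXL3 value on HK-2 R1 was thus near those of genes without measured signal.

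LOXL4, a further lysyl oxidase, was not well above background on any array. Its processed signals were -3.53 to 3.57, and no difference between arrays was detectable for it.

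The comparison of the labelled lines gave no call. Its error comes from the spread within a label, where arrays correlated at 0.852 and 0.837, below the 0.983 and 0.975 given above for pairs across labels. It could therefore detect little, and the lack of calls does not show that the lines are alike. The limma test with Benjamini-Hochberg adjustment called 0 of 21217 probes (0%), and 0 of the 9 member probes tested. At an unadjusted p under 0.05 it had 26 probes (0.123%) and 0 of the 9 members, whose smallest unadjusted limma p was 0.624. Every member probe had a limma adjusted p of 1. The other 4 member probes were not tested: LOXL4, P4HA3 and A_33_P3358824 of PLOD1 were well above background on fewer than 2 arrays, and PLOD2 had no value. The median difference HK-2 minus RPTEC/TERT1 was -0.16 over the 9 member probes and 0.02 over all probes tested.

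**Figure D3:**
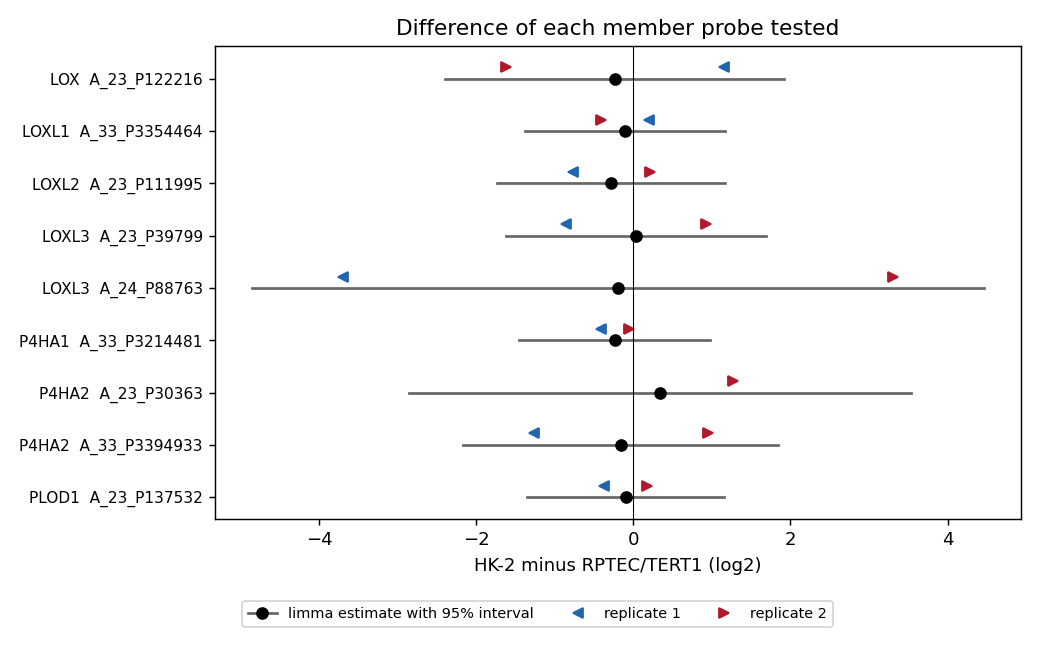
HK-2 minus RPTEC/TERT1 on the log2 scale (horizontal axis) for the 9 member probes tested, with the limma estimate and its 95% interval (circle and bar) and the differences within replicate 1 and within replicate 2 (triangles). Every interval includes 0, and the differences of the replicates lie on opposite sides of 0 for all shown with both except P4HA1.

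Read by array order, the members fell mostly across the labels, as most probes did. Over the 20807 tested probes with 4 values, both HK-2 arrays lay above both RPTEC/TERT1 arrays for 3.98% and the reverse held for 2.87%, against 0 and 1 (P4HA1) of the 8 member probes. Both replicate 1 arrays lay above both replicate 2 arrays for 9.93% and the reverse held for 11.4%, against 0 member probes in either case. HK-2 R1 and RPTEC/TERT1 R2 lay above the others for 38.1%, among the members LOX and LOXL1. HK-2 R2 and RPTEC/TERT1 R1 lay above the others for 33.5%, among the members 5 probes: LOXL2, both of LOXL3, A_33_P3394933 of P4HA2 and A_23_P137532 of PLOD1. These shares depend on the processing. With normexp correction the last of them was 14.8% (3 member probes), and with the deposited log2 values 17.3% (4 member probes). Both R1 arrays then lay above both R2 arrays for 20.1% and 22.8%, among the members both LOXL3 probes in either case. Some member orders rest on small gaps. LOXL2 was at 5.42 on HK-2 R2 and 5.34 on HK-2 R1. On RPTEC/TERT1 R1 and RPTEC/TERT1 R2, PLOD1 at A_23_P137532 was at 0.16 and 0.02 and LOXL1 at 1.02 and 1.17, with 1 spot per array. The members' shares are those of a small set and were not tested against these backgrounds.

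The size of the differences between arrays was ordinary. The 8 member probes had a median range over the 4 arrays of 0.92, against 1.09 over all probes tested with 4 values, and 3 of the 8 were above that median. LOXL3 at A_24_P88763 had a range of at least 3.69, a bound, as for the other LOXL3 probe, because the lower arrays were at the floor. Among members measured on all arrays, P4HA2 at A_33_P3394933 had a range of 1.69 and LOX of 1.62. P4HA1 and PLOD1 were the narrowest, at 0.42 and 0.41. Between the replicates the sign of HK-2 minus RPTEC/TERT1 was opposite for 7 of the 8 member probes and for 85.1% of all probes.

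**Figure D4:**
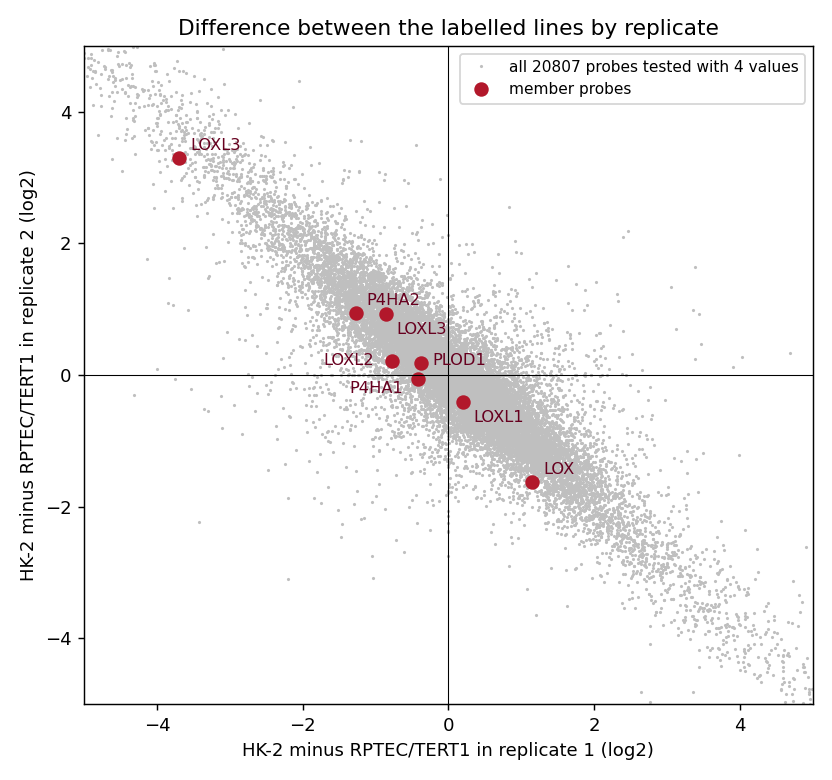
HK-2 minus RPTEC/TERT1 within replicate 1 (horizontal axis) and within replicate 2 (vertical axis), both on the log2 scale, for the 20807 probes tested with 4 values (grey) and the 8 member probes among them (red, named). 374 probes lie outside the axes. LOX and LOXL1 lie at the lower right and LOXL2, LOXL3, P4HA2 and PLOD1 at the upper left, along the band of all probes.

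The enzymes work beside other proteins that modify and fold collagen, among them P4HB, the chaperone SERPINH1 and the third lysyl hydroxylase PLOD3. Of 17 such genes, 15 had a tested probe, and 0 of the 22 probes were called in either direction. Their median difference was -0.08 and their median range 1.05, near those of all probes. FKBP10, a folding factor for collagen that assists lysyl hydroxylation of chain ends, had the widest range of the list. Its level was -2.79 on HK-2 R1, 2.32 on HK-2 R2, 2.44 on RPTEC/TERT1 R1 and -3.26 on RPTEC/TERT1 R2, the array order of LOXL3. In all, 12 of the 22 probes were higher on HK-2 R2 and RPTEC/TERT1 R1 than on the others, against 33.5% of all probes. With normexp correction 8 of the 22 were, against 14.8%, and with the deposited log2 values 9, against 17.3%. The order of LOX was held by 4 probes, of KDELR3, P3H1, P3H2 and PPIB, against 38.1% of all probes. The counts of this and the following lists were not tested against these shares. P4HB, the partner of the P4HA subunits, had a level of 4.45, 4.69, 5.15 and 4.40 at A_23_P107412 on HK-2 R1, HK-2 R2, RPTEC/TERT1 R1 and RPTEC/TERT1 R2. At its other probe, A_33_P3252043, which had a saturated spot, P4HB was at 6.72, 6.30, 6.84 and 6.76 on these arrays, with both RPTEC/TERT1 arrays above both HK-2 arrays. These genes and those given below for an array order were named after their values were seen.

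Genes that trim and assemble procollagen had 7 probes tested of 11, 0 of them called, with a median difference of -0.06 and a median range of 2.15. SPARC, a collagen-binding protein of the matrix, had the widest range, at 0.11 on HK-2 R2 and -0.25 on RPTEC/TERT1 R1, while it was not well above background on the other arrays. Of these 7 probes, 5 had the array order of LOXL3, those of ADAMTS14, ADAMTS3, PCOLCE, PCOLCE2 and SPARC, and 1, of TLL2, had that of LOX. Over all probes these orders made up 33.5% and 38.1%. The count of 5 was 3 with normexp correction, against 14.8% of all probes, and 3 with the deposited log2 values, against 17.3%. Their summed signal was 0.914, 4.20, 4.14 and 0.793 times the 75th percentile on HK-2 R1, HK-2 R2, RPTEC/TERT1 R1 and RPTEC/TERT1 R2.

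The substrates of the enzymes had both orders. Of 17 probes of 12 collagen, elastin and fibronectin genes, 11 were tested and 0 called, with a median difference of -0.07 and a median range of 1.85. COL6A2, a chain of type VI collagen, had the widest range, with a level of -1.32 on HK-2 R2 and -0.75 on RPTEC/TERT1 R1 at A_33_P3269539, and it was not well above background on the other arrays. Of the 11 probes, 7 had the array order of LOXL3, against 33.5% of all probes. Among the 7 were all tested probes of type VI collagen, FN1 and COL1A1. The other order, that of LOX, was held by 2 probes, of the basement membrane chains COL4A1 and COL4A2, against 38.1% of all probes. COL4A1 had a level of 3.01 on HK-2 R1, -0.06 on HK-2 R2, 1.07 on RPTEC/TERT1 R1 and 2.43 on RPTEC/TERT1 R2. COL1A2, COL3A1 and COL6A3 were not well above background on any array. The order of LOXL3 was held by 1 of the 11 substrate probes with normexp correction and by 2 with the deposited log2 values. Its share over all probes was then 14.8% and 17.3%.

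Several of the members are known targets of hypoxia signalling, so genes of that response were counted as well. Of 15 hypoxia genes, 13 had a tested probe, and 0 of the 16 probes were called, with a median difference of -0.16 and a median range of 1.09. VEGFA, the vascular growth factor, had the widest range, with a level at A_23_P70398 of -1.13 on HK-2 R1, 1.24 on HK-2 R2, 0.63 on RPTEC/TERT1 R1 and 0.02 on RPTEC/TERT1 R2. Among the 15 hypoxia probes with 4 values, 5 had the array order of LOXL3 (KDM3A, PDK1, PFKFB4, SLC2A1 and VEGFA), against 33.5% of all probes. The order of LOX was held by 4 (ADM, EGLN3, HIF1A and LDHA), against 38.1%. That of P4HA1 was held by 4 (EGLN1, LDHA, NDRG1 and PGK1), against 2.87%, with small gaps. From the higher HK-2 to the lower RPTEC/TERT1 array, levels went from 1.35 to 1.38 for EGLN1 and 4.33 to 4.38 for LDHA. They went from 3.27 to 3.44 for NDRG1 and 5.54 to 5.63 for PGK1. This count was not made in the other settings. P4HA1 itself lost that order with quantile normalization or the deposited log2 values. LDHA and HIF1A have 2 probes each, whose orders differed. The split of 5 to 4 was 9 to 2 with quantile normalization, 7 to 2 with the deposited log2 values and 6 to 2 with normexp correction. In these settings the orders of LOXL3 and LOX made up 36.6% and 34.4%, 17.3% and 42.0%, and 14.8% and 40.1% of all probes.

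RefSeq promoter windows of GRCh38.p14 around transcription starts were held for 8 of the 10 members. The core of the hypoxia response element, ACGTG or GCGTG on either strand, was in a window of 5 of these 8 genes (LOX, LOXL3, P4HA1, PLOD1 and PLOD2), and of 52.4% of all 27305 genes with a window. The AP-1 motif TGACTCA or TGAGTCA was in 0 of the 11 member windows and in 4.95% of all windows. The NF-kB motif was in 1 of the 11 member windows, that of LOXL4, and in 5.91% of all windows. Several windows of LOX overlap, and these matches describe letters in the windows only.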

How the data were processed

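For each of the 4 arrays the authors deposited linear intensities that Agilent's software, Feature Extraction 9.5.3.1, read from the spots, without scaling between arrays. They also deposited a table of log2 values, for which no processing is stated in the sources used here. The deposited log2 values had array medians of 8.31, 7.04, 6.67 and 6.65, their centring and scaling are unknown, and they served as an alternative. For RNA isolation the labels give the RNeasy kit and the methods innuPREP. Probe positions and names are those of the files (GRCh37). The transcripts of 12 of the 13 member probes were found in the RefSeq table under the same symbol, all but that of A_33_P3394933 of P4HA2. No column of other samples was present.

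Processed signals, relative to the array's 75th percentile and floored at 0.0242 of it, were taken to log2. Control and outlier spots were left out and spots of a probe averaged. Probes well above background on at least 2 of 4 arrays were compared between the labelled lines with limma 3.58.1 (lmFit and eBayes, R 4.3.3), two-sided, with Benjamini-Hochberg adjustment at 0.05 over all probes tested. This fit was tested on simulated data with known changes, as a check of its code. Simulated arrays of the same label agreed closely, unlike the real ones, so that check does not show what could be detected here. Probes fitted on 3 arrays are named as such. All member probes are described. Of the other lists every gene was counted, and the gene with the widest range was named, with marker genes for the check of the cells. Members and lists were chosen with earlier results of these data known.

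Alternatives were normexp correction (offset 50), the deposited values, quantile normalization, scaling to the median of probes measured on all arrays, no filter, a filter on all 4 arrays, outlier spots kept, each array left out, the replicate number as a block, and gene means. Same-numbered arrays deviated from their label means with a correlation of -0.80 across probes, and the numbers were not taken to pair the cultures.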

Additional observations from a re-analysis of the deposited data

Results flagged for a closer look

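Spots that the scanner software marked as outliers were left out, but they held signal far above the negative controls of the arrays, whose 95th percentiles were 2.31 to 9.12. PLOD2 had a processed signal of 10399 on HK-2 R1, 9696 on HK-2 R2, 8402 on RPTEC/TERT1 R1 and 10568 on RPTEC/TERT1 R2, each from a single spot marked as non-uniform. P4HA2 at A_23_P30363 had a processed signal of 5659 on HK-2 R1, from 1 spot marked in the same software. The part of the marked pixels in these values was not tested.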

How the results depend on the processing

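No member probe and no list probe was called between the labelled lines in any setting tried, where the lowest limma adjusted p of a member was 0.999. Probes at an unadjusted p under 0.05 numbered 5 to 309 over the planned settings. They numbered 5 with the replicate block and 192 with the crossed replicate block, which was chosen after seeing the data and pairs arrays of different number, and both left 0 probes called. Of 113 recomputed member differences, 91 kept their direction and 22 did not. The 91 include estimates that could not change. Those with no filter, the filter on all arrays and the replicate block repeat the main values. So do most with outlier spots kept, gene means of genes with 1 probe, and A_23_P30363 without HK-2 R1, which it already lacked. Among the 22, the P4HA2 gene mean set against A_23_P30363 is the main value of A_33_P3394933. These counts therefore do not measure how stable the directions are. With normexp correction LOXL3 at A_24_P88763 became 1.10, P4HA2 at A_33_P3394933 0.41 and PLOD1 0.0205, and with the deposited log2 values they became 0.66, 0.21 and 0.0197. Normexp moved the median difference of all probes to 0.35 and the deposited values moved it to 0.19. With outlier spots kept, P4HA2 at A_23_P30363 became -0.22. As gene means, LOXL3 became -0.0796, P4HA2 -0.16 and PLOD1 0.0023, where the P4HA2 mean leaves out A_23_P30363 because it lacks a value on 1 array. The LOXL3 mean averages both LOXL3 probes. The PLOD1 mean takes in A_33_P3358824, which was well above background on 1 array only. Leaving out 1 array in turn gave differences of -1.03 to 0.56 for LOX (above 0 without HK-2 R2 or RPTEC/TERT1 R2), -0.34 to 0.12 for LOXL1 (above 0 without HK-2 R2), -0.73 to 0.17 for LOXL2 (above 0 without RPTEC/TERT1 R1), -2.04 to 1.65 for LOXL3 at A_24_P88763 (above 0 without HK-2 R1 or RPTEC/TERT1 R1) and -0.43 to 0.50 at A_23_P39799 (below 0 without HK-2 R2 or RPTEC/TERT1 R2). They were -0.35 to -0.13 for P4HA1, -0.58 to 1.26 for P4HA2 at A_23_P30363 (below 0 without RPTEC/TERT1 R2), -1.01 to 0.68 at A_33_P3394933 (above 0 without HK-2 R1 or RPTEC/TERT1 R1) and -0.30 to 0.11 for PLOD1 (above 0 without HK-2 R1). In these fits the single array left in a line takes its spread from the other line. Apart from the averaging in the gene means, the cause of these changes was not tested. Dim signal limits LOXL4, P4HA3 and the second PLOD1 probe.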

Other observations

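Among the other genes that modify or export collagen, 4 probes beside that of FKBP10 had a range over 2 on the log2 scale. They were chosen after their values were seen. LEPREL2, a collagen prolyl 3-hydroxylase (P3H3), had a level of 1.25 on HK-2 R1, 4.24 on HK-2 R2, 4.45 on RPTEC/TERT1 R1 and 1.25 on RPTEC/TERT1 R2. P3H4, which forms a complex with lysyl hydroxylase in the endoplasmic reticulum, had a level of 0.32, 2.72, 2.53 and 0.57 on the same arrays in that order. Both were high on HK-2 R2 and RPTEC/TERT1 R1, as FKBP10 was. PPIB, a cyclophilin of the collagen folding machinery, was high on the other arrays, with 2.67, 2.10, 1.29 and 3.43. MIA3, which helps export procollagen, was at -5.14, -2.68, -3.60 and -3.12 at A_33_P3236642, with both R2 arrays above both R1 arrays, and its other probes did not share that order. For none of the 4 was a difference between the labelled lines called by limma.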
